A study of Mus musculus with 12 samples.

Results

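A group of 7 genes encodes the CCCH zinc finger and RING-type proteins that remove cytokine and co-stimulatory mRNAs from T cells. They are Zfp36, Zfp36l1 and Zfp36l2 of the ZFP36 family, Zc3h12a and Zc3h12d of the Regnase family, and Rc3h1 and Rc3h2 of the Roquin family. They were chosen by name, with earlier results of these data known, and all 7 were found among the 55414 gene records counted. The cells were splenic CD4+ T cells that had been purified from wild-type male BALB/c mice aged 18 weeks. Mice of the LIP group had ligature-induced periodontitis, produced by tying a ligature around molar teeth, and CTL mice had no ligature. Day 0 cells were lysed without culture. Day 2 cells were kept in culture with IL-2 at 10 ng/ml, anti-TCRβ antibody at 1 µg/ml and anti-CD28 antibody at 1 µg/ml, as the protocol in the labels gives it. The study's methods give other concentrations of IL-2 and anti-TCRβ. The 4 groups held 3 libraries each (12 in all), named here by group and by the number in the sample title, and within a group the numbers of day 2 differ from those of day 0.

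Proteins of the ZFP36 family bind AU-rich elements in the 3′ untranslated region (3′ UTR) of an mRNA and recruit the CCR4-NOT complex, which shortens the poly(A) tail. Zc3h12a encodes Regnase-1, an endoribonuclease that cleaves mRNAs at short stem-loops, and Zc3h12d encodes its relative Regnase-4. Rc3h1 and Rc3h2 encode Roquin-1 and Roquin-2, which bind stem-loops with a loop of pyrimidine, purine and pyrimidine and also recruit the deadenylation machinery. In T cells these proteins are known to hold back mRNAs such as Tnf, Il2, Ifng, Icos and Tnfrsf4, and the paracaspase MALT1 is known to cleave Regnase-1 and the Roquins after T cell receptor stimulation.

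The letters that these proteins read are shown from the GRCm39 genome, on the strand of the transcript and with T for U. The AU-rich heptamer TATTTAT was searched on the sense strand, overlaps allowed, in the 3′ UTR of the canonical transcript of each gene in GENCODE M39. It was present in 5 of the 7 members and in 29.7% of all 20566 3′ UTRs, where it occurred 0.304 times per kb. The 3 ZFP36 family genes, whose products bind this element, held 3 copies each in 3′ UTRs of 774 (Zfp36), 1835 (Zfp36l1) and 2049 (Zfp36l2) bases. Among 3′ UTRs within 20% of these lengths, 1.3%, 4.41% and 5.29% held as many copies. The first copy of each family gene is printed beside the first copies of Tnf and Il2, 2 mRNAs known to be bound, with the heptamer in capitals.
Zfp36, chr7:28076392-28076418, minus strand: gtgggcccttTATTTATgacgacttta
Zfp36l1, chr12:80155197-80155223, minus strand: tatcaaaacgTATTTATtgccaaacta
Zfp36l2, chr17:84492343-84492369, minus strand: ctatttaactTATTTATtatcttgtga
Tnf, chr17:35418685-35418711, minus strand: agcccccctcTATTTATatttgcactt
Il2, chr3:37175201-37175227, minus strand: taaggctctcTATTTATttaaatattt

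Tnf held 8 heptamers in 764 bases and Il2 held 3 in 581 bases. Rc3h1 held 2 and Rc3h2 held 4, in 3′ UTRs of 7181 and 6336 bases, where 76.6% and 72.5% of 3′ UTRs of like length held at least 1. Zc3h12a and Zc3h12d held 0. Of 16 known AU-rich targets, 14 held the heptamer, and Myc and Il3 held 0.

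Stem-loops were searched as 6 paired bases, a loop of pyrimidine, purine and pyrimidine, and the 6 complementary bases, with no mismatch and no G-U pair. They were present in 3 members and in 9.14% of all 3′ UTRs. Zc3h12a held 3 in 856 bases, Rc3h1 held 4 (of which 2 overlapped in a TA repeat) and Rc3h2 held 1. Among 3′ UTRs within 20% of their lengths, 5.36%, 35.6% and 31.2% held at least 1. The same 15 letters stood in Rc3h1 and Rc3h2, on different chromosomes, and in no other 3′ UTR searched. Of 14 known stem-loop targets, 7 held a stem-loop by this search, and 7 held 0 (Ier3, Il2, Il2ra, Il6, Irf4, Ptgs2 and Tnfaip3). The loops of Rc3h1 and Rc3h2 are printed beside the first loop of Zc3h12a and one loop each of the known targets Tnf and Icos, with stem and loop in capitals.
Rc3h1, chr1:160799223-160799251, plus strand: agccaatAACTTCTGTGAAGTTgcctttt
Rc3h2, chr2:37263814-37263842, minus strand: tttaattAACTTCTGTGAAGTTgtttact
Zc3h12a, chr4:125012855-125012883, minus strand: ccctgttGATACACATTGTATCtctgtca
Tnf, chr17:35418554-35418582, minus strand: cagacatGTTTTCTGTGAAAACggagctg
Icos, chr1:61038983-61039011, plus strand: ggtgcctATTTCCTATGGAAATgaagact

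The libraries held 6249018 to 7845676 assigned counts on day 0 and 8691699 to 12866718 on day 2. Summed levels of 9 CD4+ T cell markers lay between 2667 and 4160 CPM (counts scaled to a common library size, assigned counts taken as the whole), against 4.42 to 13.2 CPM for 2 CD8 markers. Sums of 8 myeloid markers (S100a8 and S100a9 at 0 throughout) were 4.69 to 12.3 CPM on day 0 and 0.834 to 2.80 CPM on day 2, and those of 5 NK cell markers (Klra8 at 0) were 8.29 to 20.1 and 1.19 to 4.39 CPM. B cell markers (6 genes) summed to 6.01 to 12.5 CPM on day 0, and on day 2 to 3.27, 3.34 and 19.6 CPM in CTL 92, 93 and 97 and to 2.42, 33.3 and 30.3 CPM in LIP 90, 96 and 97. Erythroid markers (5 genes) summed to at most 3.01 CPM and pancreatic acinar markers (10 genes) to 0.601 to 0.919 CPM in CTL and 0.687, 16.6 and 7.07 CPM in LIP 92, 93 and 94 on day 0, and 3.31 to 10.2 CPM on day 2. On day 2 the acinar sums came from Prss2 (2.98 to 10.0 CPM) and Cela1 (0 to 1.215 CPM) alone, with the other markers of that list at 0. The part of other cell types in the members' differences was not tested. The sum of 9 activation markers rose from 403 to 535 CPM on day 0 to 7435 to 8633 CPM on day 2. Of the 6 day 2 libraries, 4 carry treatment labels that name anti-CD29 or anti-CD30 in place of anti-CD28.

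**Figure D1:**
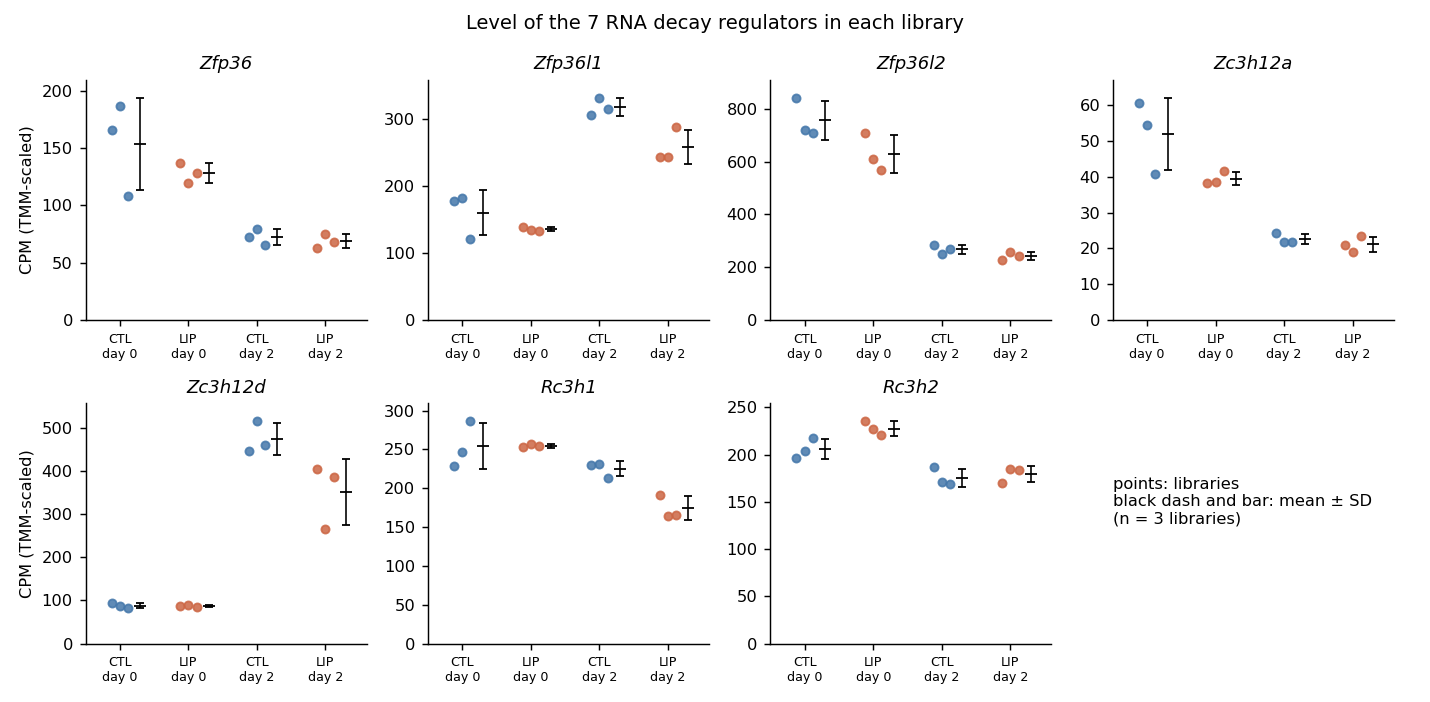
Level of each of the 7 genes in CPM (vertical axis, from 0) in the 3 libraries of each group, with the mean and SD in black. Zfp36l1 and Zc3h12d lie higher on day 2, Zfp36, Zfp36l2 and Zc3h12a lie lower, and for these 5 genes no library of day 2 overlaps with one of day 0 of the same group.

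Levels are compared between genes only per length, as CPM per kb of all annotated exon bases. On day 0 the order in CTL began with Zfp36l2 at 200.9 ± 19.9 CPM per kb (SD, n = 3 libraries, as for each mean below). Zfp36l1 followed at 50.0 ± 10.5 and Zfp36 at 43.9 ± 11.5 CPM per kb, and these neighbours overlapped. Rc3h1 came next at 22.2 ± 2.58, then Zc3h12d at 13.9 ± 0.976 and Zc3h12a at 13.4 ± 2.60, which overlapped, and Rc3h2 at 9.37 ± 0.483 CPM per kb. LIP libraries of day 0 kept the first 5 places in this order, and the last places there were Rc3h2 at 10.3 ± 0.345 and Zc3h12a at 10.1 ± 0.451 CPM per kb, with overlap. With the longest transcript of each gene as the length instead, Zfp36 came before Zfp36l1 with overlap in both groups. Rc3h2 was then at 19.8 ± 1.02 (CTL) and 21.9 ± 0.721 (LIP) CPM per kb, and Zc3h12a was last and apart in both.

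On day 2 Zfp36l1 stood first, at 99.2 ± 4.07 CPM per kb in CTL and 80.6 ± 8.07 in LIP. Zc3h12d and Zfp36l2 followed, at 75.1 ± 5.82 and 71.1 ± 4.26 CPM per kb in CTL and 55.8 ± 12.1 and 64.3 ± 4.31 in LIP, and this pair overlapped in both groups. By the longest transcript Zc3h12d stood first on day 2, at 111.4 ± 8.64 CPM per kb in CTL, apart from Zfp36l1, and 82.9 ± 17.9 in LIP, where it overlapped with Zfp36l1. Zc3h12a had the lowest level of the 7 genes on day 2 by either length.

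The first comparison asked how the regulators changed between uncultured cells and stimulated cells. Of the 7 genes, 2 rose (Zfp36l1 and Zc3h12d) and 4 fell (Zfp36, Zfp36l2, Zc3h12a and Rc3h2) in CTL, at an adjusted p under 0.05 in edgeR's quasi-likelihood test. In LIP the same 2 rose and 5 fell, Rc3h1 being the addition. Change was the rule among all genes, since 36.2% of the 14621 genes tested in CTL were called higher and 34.7% lower (70.8% in all), and 36.1% and 35.4% of 14310 in LIP (71.5% in all). Between the days, 74.7% of the genes in CTL and 76.4% in LIP did not overlap. A call by itself was therefore common, and the direction and size of each change are given gene by gene. The median log2 fold change of the 7 genes was −0.25 in CTL and −0.56 in LIP, against −0.01 in CTL and 0.01 in LIP over all genes tested. Culture and stimulation cannot be told apart in this comparison, and neither can fewer cells of a type and less RNA per cell. CPM are shares of the counts of a library, so that a rise or fall in CPM need not be one in RNA per cell.

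Zfp36l2 (GRCm39 chr17:84491132-84495382, minus strand) encodes a ZFP36 family protein known from lymphocyte development and quiescence. It was measured at 842.4, 719.8 and 707.0 CPM in CTL 88, 89 and 94 on day 0, and at 282.8, 250.9 and 269.4 CPM in CTL 92, 93 and 97 on day 2. LIP 92, 93 and 94 of day 0 held 706.7, 608.3 and 566.8 CPM, and LIP 90, 96 and 97 of day 2 held 226.1, 258.5 and 241.4 CPM. Every day 0 library was above every day 2 library. The log2 fold change of day 2 over day 0 was −1.52 ± 0.10 (SE) in CTL (edgeR adjusted p = 2.81e-07) and −1.39 ± 0.12 in LIP (edgeR adjusted p = 1.66e-05), the largest fall among the 7 genes in both groups.

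Zfp36l1 (chr12:80154528-80160006, minus strand), its closest relative in the family, moved the opposite way. Its level was 177.7, 181.9 and 121.7 CPM in CTL on day 0 and 307.3, 332.7 and 315.1 CPM on day 2, in the same order of libraries. In LIP it was 139.7, 134.5 and 133.3 CPM on day 0 and 243.9, 243.7 and 288.6 CPM on day 2. The groups of the 2 days did not overlap, and the log2 fold change was 0.97 ± 0.14 in CTL (edgeR adjusted p = 7.26e-05) and 0.91 ± 0.10 in LIP (edgeR adjusted p = 8.25e-05).

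Zfp36 (chr7:28076209-28079710, minus strand) encodes tristetraprolin, also known as an immediate early gene product. Its CTL libraries held 166.0, 186.4 and 108.4 CPM on day 0 and 72.7, 79.3 and 65.4 CPM on day 2. LIP libraries held 137.2, 119.4 and 128.4 CPM on day 0 and 63.2, 75.4 and 68.1 CPM on day 2. It fell in both groups without overlap, by 1.10 ± 0.17 on the log2 scale in CTL (edgeR adjusted p = 0.000148) and by 0.91 ± 0.11 in LIP (edgeR adjusted p = 0.000106). CTL 94 was the lowest of the day 0 libraries for Zfp36 and for Zfp36l1.

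**Figure D2:**
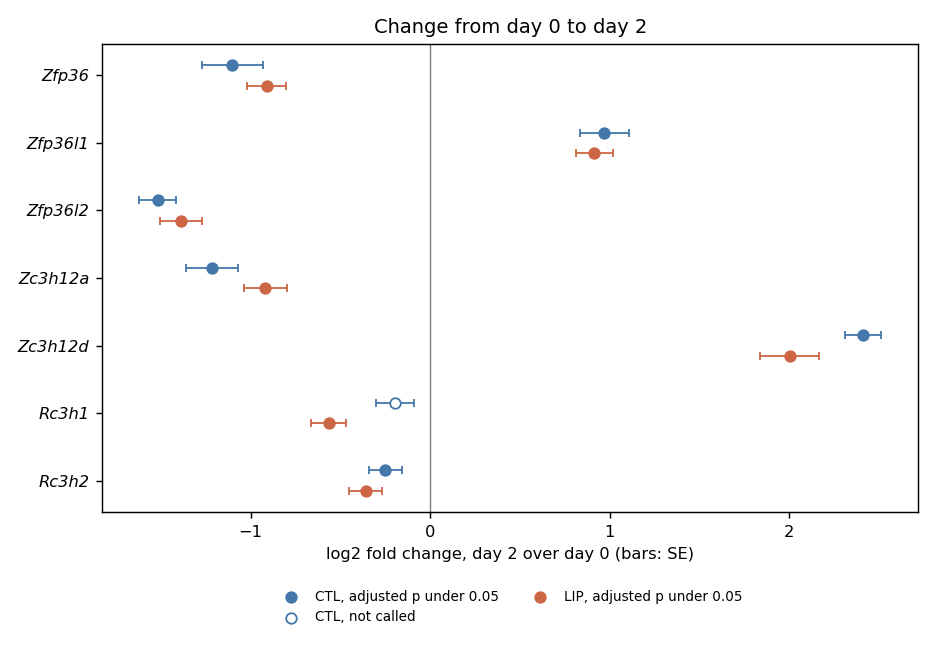
Log2 fold change of day 2 over day 0 for each gene (horizontal axis, bars give the SE), in CTL (blue) and LIP (orange), with filled points for an adjusted p under 0.05. Zc3h12d lies farthest right (2.41 and 2.00) and Zfp36l2 farthest left (−1.52 and −1.39), and the one open point is Rc3h1 in CTL (−0.19).

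Within the ZFP36 family the leading transcript therefore differed between the days. Zfp36l2 made up 68.4% ± 4.84 of the family's CPM per kb in CTL and 67.8% ± 1.82 in LIP on day 0, and 37.2% ± 2.42 and 39.1% ± 2.19 on day 2. Zfp36l1 made up 16.9% ± 2.03 and 17.3% ± 1.07 on day 0 and 51.9% ± 1.89 and 49.0% ± 3.09 on day 2. Zfp36 went from 14.8% ± 2.82 and 15.0% ± 0.929 to 10.8% ± 0.908 and 12.0% ± 0.907. The family sum was 294.8 ± 35.4 CPM per kb in CTL and 245.6 ± 22.0 in LIP on day 0, and 191.0 ± 2.33 and 164.6 ± 9.78 on day 2, with every day 0 library above every day 2 library.

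Zc3h12d (chr10:7708080-7746160, plus strand), an RNase of the Regnase family found mainly in lymphocytes, had the largest rise of the 7 genes. On day 0 it was measured at 94.4, 86.5 and 82.3 CPM in CTL and at 87.2, 88.6 and 84.9 CPM in LIP. On day 2 the CTL libraries held 445.4, 514.6 and 459.1 CPM, and LIP 90, 96 and 97 held 404.9, 264.5 and 386.1 CPM. Day 0 libraries lay within a narrow range and every day 2 library lay above it, with LIP 96 the lowest of that day. Its level was 5.32-fold higher on day 2 in CTL (log2 fold change 2.41 ± 0.10, edgeR adjusted p = 1.18e-08) and 4.01-fold higher in LIP (2.00 ± 0.16, edgeR adjusted p = 1.41e-05). B cells are also known to express this gene. CTL 92, CTL 93 and LIP 90, with the lowest B cell marker sums of day 2 (3.27, 3.34 and 2.42 CPM), held 445.4, 514.6 and 404.9 CPM of it. CTL 97, LIP 96 and LIP 97, with the highest (19.6, 33.3 and 30.3 CPM), held 459.1, 264.5 and 386.1 CPM. The part of B cells in these levels was not tested.

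Zc3h12a (chr4:125012216-125021711, minus strand) fell. CTL libraries held 60.6, 54.5 and 40.8 CPM on day 0 and 24.3, 21.7 and 21.9 CPM on day 2. LIP libraries held 38.4, 38.5 and 41.5 CPM on day 0 and 20.8, 19.1 and 23.4 CPM on day 2. All day 0 libraries were above all day 2 libraries, and the log2 fold change was −1.22 ± 0.15 in CTL (edgeR adjusted p = 2.31e-05) and −0.92 ± 0.12 in LIP (edgeR adjusted p = 0.000179). Zc3h12d accordingly made up 51.3% ± 3.59 (CTL) and 57.7% ± 1.57 (LIP) of the CPM per kb of both genes on day 0, and 92.8% ± 0.859 and 91.0% ± 1.38 on day 2.

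**Figure D3:**
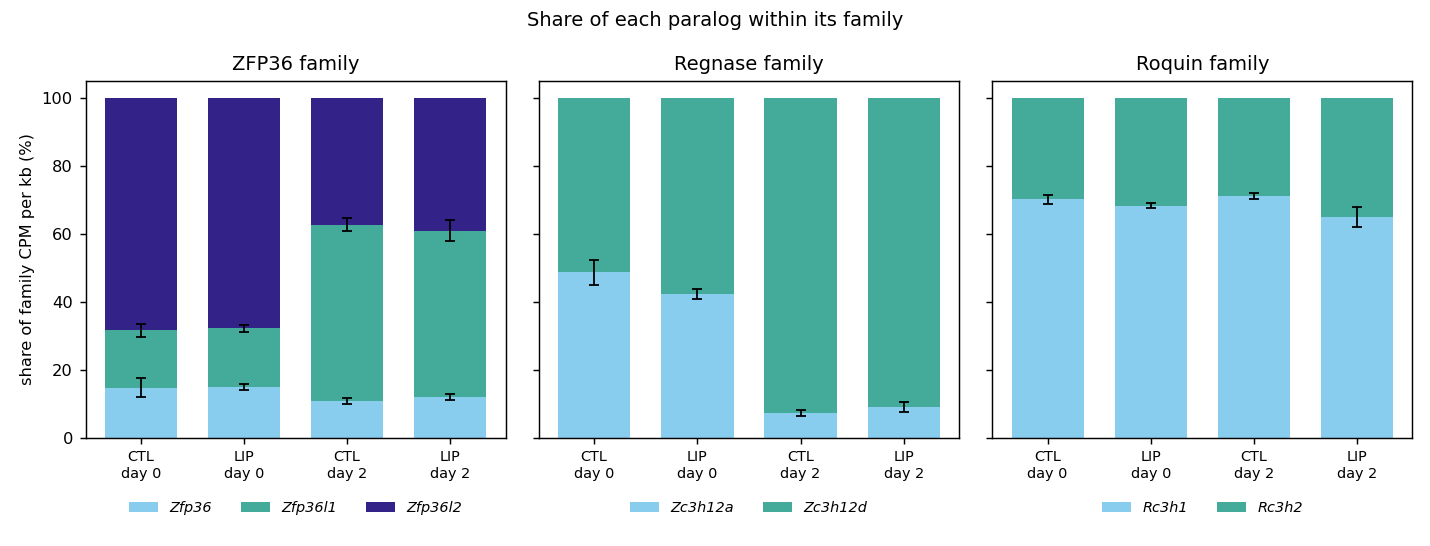
Share of each paralog in the summed CPM per kb of exon bases of its family (vertical axis, percent), as the mean of 3 libraries per group with SD bars. Zfp36l2 goes from 68.4% to 37.2% in CTL and Zc3h12d from 51.3% to 92.8%, while Rc3h1 stays between 65.1% and 71.2%.

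The Roquin genes had log2 fold changes between −0.56 and −0.19 over both groups. In LIP, upper-quartile scaling and scaling by library totals placed Rc3h1 at −0.87 and −0.91 and Rc3h2 at −0.66 and −0.71, against 0.61 and 0.57 for Zfp36l1. Rc3h1 (chr1:160733982-160802548, plus strand) was measured at 228.5, 247.0 and 286.2 CPM in CTL on day 0 and at 230.3, 231.7 and 213.8 CPM on day 2, and these groups overlapped. In LIP it was measured at 252.7, 257.3 and 254.1 CPM on day 0 and at 191.8, 164.5 and 165.7 CPM on day 2, without overlap. The log2 fold change was −0.19 ± 0.11 in CTL (edgeR adjusted p = 0.121) and −0.56 ± 0.10 in LIP (edgeR adjusted p = 0.00089). Upper-quartile scaling and scaling by library totals, which moved the median of all genes in CTL from −0.01 to −0.28 and −0.18, placed Rc3h1 in CTL at −0.46 and −0.36 (edgeR adjusted p = 0.00244 and 0.0107). The locus also holds 3 annotated records of unknown coding status on the same strand, Gm37052, Gm37653 and Gm37809, so that counts could be split between records.

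Rc3h2 (chr2:37258909-37313172, minus strand) was measured at 196.8, 204.2 and 217.8 CPM in CTL on day 0 and at 186.6, 171.5 and 169.1 CPM on day 2. LIP libraries held 235.4, 227.2 and 220.4 CPM on day 0 and 169.6, 184.9 and 183.3 CPM on day 2. The days did not overlap in either group, with log2 fold changes of −0.25 ± 0.09 in CTL (edgeR adjusted p = 0.0294) and −0.36 ± 0.09 in LIP (edgeR adjusted p = 0.0065). In CTL the call was lost without CTL 88 or 94 of day 0 or CTL 93 or 97 of day 2 (edgeR adjusted p between 0.051 and 0.119) and with no filter on low counts (0.124). Upper-quartile scaling and scaling by library totals placed Rc3h2 in CTL at −0.52 and −0.42 (edgeR adjusted p = 0.000456 and 0.00223). These scalings placed the median of all genes in CTL at −0.28 and −0.18. Rc3h1 made up 70.2% ± 1.31, 68.3% ± 0.805, 71.2% ± 0.956 and 65.1% ± 3.01 of the Roquin CPM per kb in CTL and LIP of day 0 and CTL and LIP of day 2. By the longest transcript, whose length for Rc3h2 is 10396 against 22007 exon bases, these shares were 53.4%, 51.1%, 54.5% and 47.5%, so that which Roquin gene was higher on day 2 in LIP depended on the length.

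The other members of these families were measured at low levels. Zc3h12b lay at 10.8 to 13.9 CPM on day 0 and at 3.2 to 6.8 CPM on day 2, and fell in both groups (log2 fold change −1.18 ± 0.27 in CTL and −1.13 ± 0.16 in LIP). Zc3h12c lay at 1.1 to 2.0 CPM on day 0 and rose in CTL (1.70 ± 0.33), while in LIP its log2 fold change was 0.70 ± 0.33 (edgeR adjusted p = 0.0864). Zfp36l3 was too low to test.

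Known target mRNAs of these proteins moved in both directions between the days. Of 16 known AU-rich targets, 6 passed the filter on low counts in the day 0 libraries alone, and of these 5 rose (Ifng, Il21, Myc, Notch1 and Tnf) and 1 fell (Fos) in both groups. A further 3 in CTL (Il2, Il10 and Ier3) and 4 in LIP (with Csf2) passed only through their day 2 libraries, so that under the filter they had to be higher on day 2, and 7 and 6 were too low to test. Among those that passed on day 0, Tnf, encoding an inflammatory cytokine, rose by 1.78 ± 0.12 in CTL and 1.73 ± 0.10 in LIP on the log2 scale, and Myc, encoding a growth-promoting transcription factor, by 1.58 ± 0.14 in CTL. Il2, encoding the T cell growth factor, was at 1.20, 0.721 and 0.394 CPM in CTL on day 0 (8, 6 and 3 counts) and at 63.8, 68.5 and 55.1 CPM on day 2. Il10 was at 0.138, 0.281 and 0 CPM in LIP on day 0 (1, 2 and 0 counts) and at 15.9, 10.1 and 10.4 CPM on day 2, and Ier3 at 0.138, 0.14 and 0.533 CPM (1, 1 and 4 counts) and at 8.23, 9.25 and 5.05 CPM. Fos, which encodes an AP-1 subunit, fell in CTL (−2.85 ± 0.35) and in LIP (−0.81 ± 0.14).

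Of 14 known stem-loop targets, 10 passed the filter in the day 0 libraries alone, of which 7 rose and 3 fell in CTL and 7 rose and 2 fell in LIP. Il2 and Ier3 passed only through day 2. The list shares 5 genes with the AU-rich list, Tnf and Il2 among them. Irf4, encoding a transcription factor of activated T cells, rose by 6.04 ± 0.17 in CTL and 6.18 ± 0.18 in LIP on the log2 scale. Tnfrsf4, encoding the co-stimulatory receptor OX40, rose by 4.56 ± 0.15 and 4.44 ± 0.16, and Il2ra, encoding the IL-2 receptor α chain, by 4.28 ± 0.15 and 4.03 ± 0.11. Nfkbiz and Nfkbid, encoding nuclear IκB proteins, fell in both groups (Nfkbiz by 1.62 ± 0.22 and by 0.90 ± 0.17, Nfkbid by 0.54 ± 0.17 and by 0.79 ± 0.18). Tnfaip3, encoding the ubiquitin-editing protein A20, fell in CTL (−2.28 ± 0.44) and was not called in LIP (−0.13 ± 0.22, edgeR adjusted p = 0.62).

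**Figure D4:**
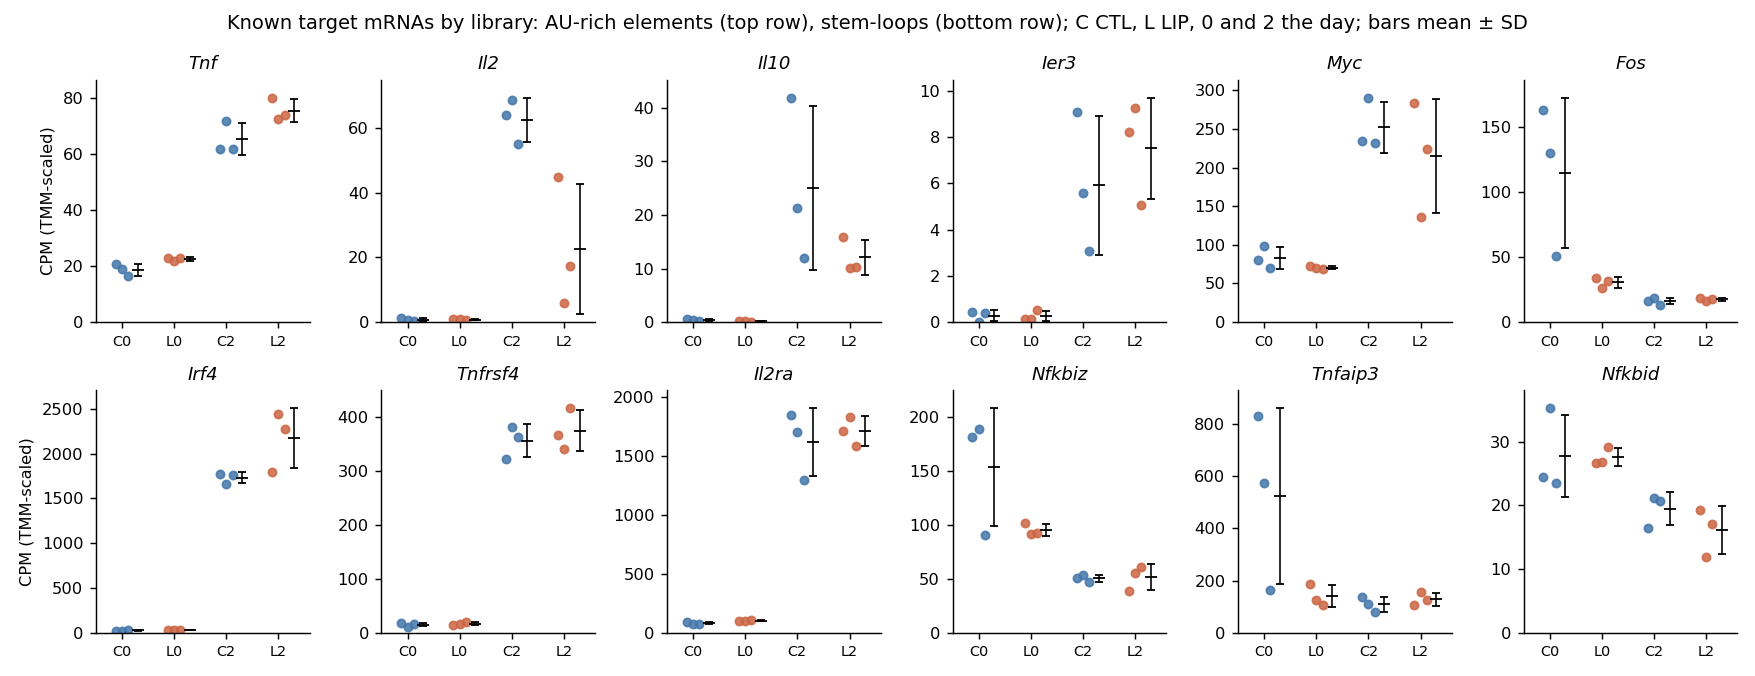
Level of 12 known target mRNAs in CPM (vertical axis, from 0) in each library, with mean and SD in black, for AU-rich targets (top row) and stem-loop targets (bottom row). Irf4, Tnfrsf4 and Il2ra are far higher on day 2 in every library, Il2 on day 2 is at 44.9, 5.9 and 17.2 CPM in LIP 90, 96 and 97 against 55.1 to 68.5 CPM in CTL, and Fos, Nfkbiz and Tnfaip3 on day 0 are lowest among CTL in CTL 94.

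The machinery that acts with these proteins moved in both directions. Of 18 genes of deadenylation, 6 rose and 7 fell in CTL and 7 rose and 7 fell in LIP, with medians of 0.07 and 0.19. Cnot9 and Cnot11, subunits of the CCR4-NOT complex, rose in both (Cnot9 by 1.59 ± 0.12 and 1.69 ± 0.13, Cnot11 by 0.78 ± 0.11 and 0.75 ± 0.10). Btg2 and Tob1, antiproliferative adaptors of that complex, fell in both (Btg2 by 1.19 ± 0.11 and by 1.39 ± 0.11, Tob1 by 0.86 ± 0.13 and by 1.21 ± 0.15). Of 15 genes of decapping and 5′ decay, 6 rose and 2 fell in CTL and 7 rose and 2 fell in LIP. Among those that rose, the smallest p in both groups belonged to Lsm4 (1.57 ± 0.13 and 1.73 ± 0.15), a subunit of the LSM ring. Of 18 genes of the exosome and of nonsense-mediated decay, 8 rose and 3 fell in CTL and 9 rose and 3 fell in LIP. By p, the first of those that rose was Exosc3 (1.28 ± 0.15 and 1.37 ± 0.12), and the first of those that fell was Smg1 (−0.83 ± 0.10 and −0.70 ± 0.10).

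Among 9 known regulators and cofactors of the 7 proteins, 3 rose and 4 fell in CTL and 5 rose and 3 fell in LIP. Malt1, the protease that cleaves Regnase-1 and the Roquins, rose by 1.76 ± 0.15 in CTL and 1.38 ± 0.12 in LIP on the log2 scale. Mapkapk2, the kinase that inactivates tristetraprolin, rose by 1.92 ± 0.15 and 1.96 ± 0.09, and Nufip2, a Roquin cofactor, fell by 0.59 ± 0.10 and by 0.47 ± 0.11. Of 10 other RNA-binding proteins that act on 3′ UTRs, 6 rose and 2 fell in CTL and 5 rose and 1 fell in LIP, with Khsrp, Pcbp1 and Pcbp2 among those that rose.

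The second comparison asked whether the regulators differed between LIP and CTL in uncultured cells. On day 0, 0 of the 7 genes were called by edgeR, as in DESeq2, against 0.427% of the 14064 genes tested in edgeR (8 higher and 52 lower) and 38 higher and 168 lower in DESeq2. At an unadjusted p under 0.05 there were 2, Zc3h12a and Zfp36l2, both lower in LIP, against 13.9% of all genes. The LIP and CTL libraries did not overlap for 2 of the 7 genes, Zfp36l2 (lower) and Rc3h2 (higher), against 19.1% of all genes (9.85% in the lower direction).

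Zc3h12a was at 39.4 ± 1.77 CPM in LIP and 52.0 ± 10.1 CPM in CTL on day 0, a log2 fold change of −0.39 ± 0.13 (edgeR adjusted p = 0.211). Its CTL 94, at 40.8 CPM, fell within the LIP range of 38.4 to 41.5 CPM. Zfp36l2 was at 627.3 ± 71.8 CPM in LIP and 756.4 ± 74.8 CPM in CTL, a log2 fold change of −0.26 ± 0.10 (edgeR adjusted p = 0.26), with the highest LIP library at 706.7 and the lowest CTL library at 707.0 CPM. Zfp36 and Zfp36l1 differed by −0.25 ± 0.15 and −0.23 ± 0.12 (edgeR adjusted p = 0.488 and 0.43), Rc3h2 by 0.15 ± 0.07 (edgeR adjusted p = 0.372), and Zc3h12d and Rc3h1 by −0.01 ± 0.07 and 0.01 ± 0.09.

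The calls on day 0 depended on the libraries and the filter. Without CTL 94, 3 members were lower in LIP, namely Zfp36 (−0.46, edgeR adjusted p = 0.00767), Zfp36l1 (−0.40, adjusted p = 0.00588) and Zc3h12a (−0.54, adjusted p = 0.00747). Over all genes the calls went from 8 higher and 52 lower to 257 higher and 401 lower. Without any other library 0 members were called, and over all genes 0 to 19 were higher and 13 to 77 lower. Without CTL 89 the log2 fold changes of Zfp36, Zfp36l1 and Zc3h12a were −0.09, −0.14 and −0.36. With no filter on low counts and CTL 94 kept, Zc3h12a was called (−0.38, edgeR adjusted p = 0.0172), with 263 genes higher and 382 lower over all. CTL 94 also stood apart from CTL 88 and 89 in the summed level of 20 immediate early genes, at 1739 CPM against 2888 and 2591. In LIP this sum was 1434 to 1723 CPM. CTL 94 was not below both in every gene, with Egr2 at 14.05 CPM against 16.39 and 12.49 CPM. Of these genes 18 could be tested, 3 were called lower in LIP (Fosb, Jun and Fos) and 18 had a negative log2 fold change. The sums of 14 heat shock genes were 4069 to 4325 CPM in CTL and 2019 to 2176 CPM in LIP, and 11 of 13 tested were called lower in LIP. Single genes of this list, chosen after their values were seen, also set CTL 94 apart from CTL 88 and 89, with Hspa1a at 17.6 against 1.95 and 1.32 CPM and Hspa1b at 33.2 against 3.46 and 6.01 CPM. The part of these genes in the members' differences was not tested.

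**Figure D5:**
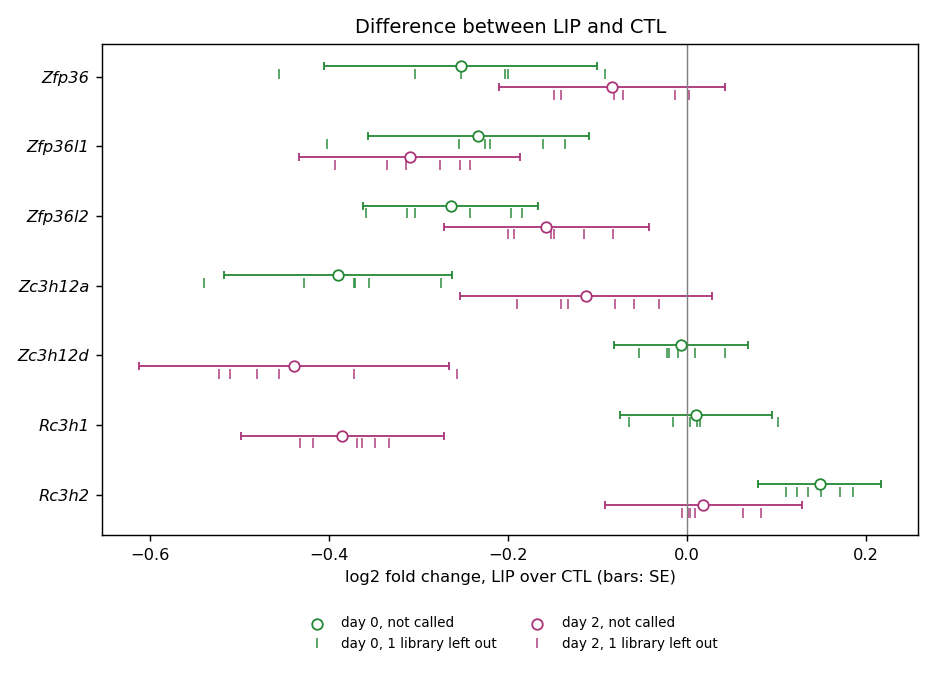
Log2 fold change of LIP over CTL for each gene on day 0 (green) and day 2 (purple), with SE bars, and as small ticks the value with each library left out in turn. All circles are open, since 0 of 7 genes were called on either day, and the leftmost green ticks of Zfp36, Zfp36l1 and Zc3h12a (−0.46, −0.40 and −0.54) are the fits without CTL 94.

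Of the targets, 1 AU-rich mRNA of 6 tested was called on day 0, Fos, which was lower in LIP (log2 fold change −1.89 ± 0.32, edgeR adjusted p = 0.0286). Of 10 stem-loop targets 0 were called by edgeR (4 at an unadjusted p under 0.05, and Il2ra in DESeq2), and the smallest p belonged to Tnfaip3, at 831.0, 575.7 and 164.6 CPM in CTL 88, 89 and 94 and 186.8, 124.4 and 107.3 CPM in LIP (−1.90 ± 0.42, edgeR adjusted p = 0.0872), and Il2ra (0.34 ± 0.08, edgeR adjusted p = 0.112). Of the 70 genes of deadenylation, decapping, the exosome and nonsense-mediated decay, the regulators and the other RNA-binding proteins, 0 were called by edgeR on day 0, 16 had an unadjusted p under 0.05, and 2 were called by DESeq2 (Hnrnpd and Btg1). The median log2 fold changes of these 5 lists lay between −0.15 and 0.07.

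The third comparison asked the same in stimulated cells. On day 2, 0 of the 7 genes were called by edgeR, as in DESeq2, and 0.00% of the 14041 genes tested were in edgeR, against 288 higher and 201 lower in DESeq2. At an unadjusted p under 0.05 there were 3, Rc3h1, Zc3h12d and Zfp36l1, all lower in LIP and all without overlap between the groups, against 16.5% of all genes at that p and 10.5% that were lower without overlap (21.4% in either direction). Rc3h1 was at 174.0 ± 15.4 CPM in LIP and 225.3 ± 9.94 CPM in CTL, a log2 fold change of −0.38 ± 0.11 (edgeR adjusted p = 0.175). Its highest LIP library held 191.8 CPM and its lowest CTL library 213.8 CPM.

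Zc3h12d was at 351.8 ± 76.2 CPM in LIP and 473.0 ± 36.7 CPM in CTL (−0.44 ± 0.17, edgeR adjusted p = 0.265), and without LIP 96, its lowest library, the difference was −0.26. Zfp36l1 was at 258.7 ± 25.9 CPM in LIP and 318.4 ± 13.0 CPM in CTL (−0.31 ± 0.12, edgeR adjusted p = 0.268). The other 4 genes had log2 fold changes between −0.16 and 0.02. Without LIP 90, the LIP library with the lowest B cell marker sum and the highest Il2 (44.9 CPM), Rc3h1 was called (−0.43, edgeR adjusted p = 0.0236), and the calls over all genes went from 0 to 1119 higher and 895 lower. It was also called with all 12 libraries in one fit (−0.37, edgeR adjusted p = 0.0488), in which 446 genes were higher and 329 lower.

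On day 2, 0 of 10 AU-rich targets, 0 of 12 stem-loop targets and 0 of the 70 genes of decay machinery, regulators and other RNA-binding proteins were called by edgeR. At an unadjusted p under 0.05 there were 6, 1 and 9, and DESeq2 called 0, 0 and 1 (N4bp1). The smallest p among regulators belonged to N4bp1, encoding an RNA-binding protein that MALT1 also cleaves, at −0.58 ± 0.14, and Malt1, at −0.50 ± 0.18 (edgeR adjusted p = 0.135 and 0.241). Il2 was at 63.8, 68.5 and 55.1 CPM in CTL and 44.9, 5.9 and 17.2 CPM in LIP, without overlap (−1.47 ± 0.55, edgeR adjusted p = 0.24).

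The difference between the 2 days in the effect of LIP was tested as an interaction over all 12 libraries. Of the 7 genes 0 were called by edgeR, as in DESeq2, against 0.0517% of 15475 genes in edgeR and 379 higher and 152 lower in DESeq2. At an unadjusted p under 0.05 there was 1, Rc3h1 (−0.38 ± 0.14, edgeR adjusted p = 0.209), against 15.9% of all genes, and Zc3h12d followed (−0.41 ± 0.19, edgeR adjusted p = 0.317). With 1 library left out, the interaction of Zc3h12d lay between −0.53 and −0.24. Without LIP 90 the interaction of Rc3h1 was called (−0.45, edgeR adjusted p = 0.0397). The call of Rc3h1 between the days in LIP and its absence in CTL is thus not shown to be a difference between the groups with all libraries in the fit.

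The genes whose pattern was most like each member over the 12 libraries were found by the root-mean-square difference of centred log2 CPM among 15412 genes. For Zfp36 these were Iqce (0.126), Kmt2c (0.133) and Gm44443 (0.138), and for Zfp36l2 they were Antxr2 (0.107), C030015A19Rik (0.127) and Maneal (0.128). Zfp36l1 was closest to Ptpn23 (0.101), Ppard (0.127) and Arid5b (0.142). Zc3h12a was closest to Smurf1 (0.133), Il18bp (0.14) and Gm6733 (0.141). Zc3h12d was closest to Pou2af1 (0.101), which encodes a co-activator of octamer-binding factors in lymphocytes, then Ece1 (0.138) and Gnpda1 (0.161). Rc3h1 was closest to Spr (0.079), Gm43331 (0.08) and Rptor (0.095), and Rc3h2 to B4galt1 (0.06), Khdc4 (0.063) and Dis3l2 (0.065). Differences under 0.25 were reached by 57 genes for Zc3h12d and by 2193 for Rc3h2, whose pattern was the flattest of the 7.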

How the data were processed

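The authors made rRNA-depleted directional libraries and, per the labels, used FastQC 0.11.9, Trimmomatic 0.38 (another version in the methods) and RSEM 1.3.0 with Bowtie2 on GRCm39. The methods also name mapping with HISAT2. The strand setting of the counting is not given in the sources used here. The deposited values are RSEM expected counts per gene without normalization, of which 27193 of 55414 records were at 0 throughout. The authors' tables per day also hold CPM, fold changes and p-values, of which only gene symbols were read. They hold 2 per-library columns that match no labelled sample, which were not used.

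After rounding, edgeR 4.0.16 in R 4.3.3 was run (filterByExpr with a minimum count of 10, TMM, quasi-likelihood test, Benjamini-Hochberg adjustment over all genes tested), for each pair of groups and for the interaction. SE is the size of the log2 fold change divided by the square root of F. Printed CPM use TMM over all 12 libraries. P-values test a difference between groups against the spread between libraries, and the labels do not state that each library came from a separate mouse. Positions and sequences came from GENCODE M39 and GRCm39. Alternatives were RLE, upper-quartile and total scaling, no filter, DESeq2 1.42.0, one fit of all libraries, and leaving out each library. Figures used Python 3.11.15 and matplotlib 3.10.9. Scripts were tested on simulated data. From lists beside the 7 members, at most 3 genes per direction with the smallest p among those called are named, or 2 where 0 were called. A named gene may be given in a further comparison. Genes behind counts of 5 or fewer are also named, after their values were seen. The values of 1 gene of the regulator list that this rule names are not reported here. The members and lists were chosen with earlier results of these data known.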

Additional observations from a re-analysis of the deposited data

How the results depend on the processing

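Over the 7 genes and 5 comparisons, 193 of the log2 fold changes under other scalings, filters, tools or fits kept direction and call, 5 reversed, 4 gained and 1 lost a call. With 1 library left out, 236 kept both, 7 reversed, 5 gained and 4 lost a call. The number of members called on day 0 was 1 with no filter on low counts, and 0 to 3 with 1 library left out. On day 2 it was 1 with all 12 libraries in one fit and 0 to 1 with 1 library left out, and for the interaction 0 to 1. Over all genes, with no filter on low counts 263 were called higher and 382 lower on day 0, and 409 higher and 253 lower on day 2, against 8 and 52, and 0 and 0, with the filter. DESeq2 called 38 and 168 on day 0, 288 and 201 on day 2, and 379 and 152 in the interaction (edgeR 5 and 3). Reversed values, none of them called, were Zc3h12d on day 0 (0.0024 under upper-quartile scaling, 0.0619 under library totals, 0.0002 with no filter), Rc3h2 on day 2 (−0.071 under library totals) and Zfp36l2 in the interaction (−0.049 under library totals, which placed the median of all genes at −0.173). With 1 library left out, log2 fold changes ranged from −0.0533 to 0.0424 for Zc3h12d and from −0.0648 to 0.1016 for Rc3h1 on day 0, from −0.1485 to 0.0021 for Zfp36 and from −0.006 to 0.0827 for Rc3h2 on day 2, and from −0.1563 to 0.087 for Zfp36l1 in the interaction. The cause was not tested. Between the days, upper-quartile and total scaling moved the median of all genes in LIP from 0.01 to −0.29 and −0.34, and no member changed direction. No paired analysis was possible because the groups compared share fewer than 2 replicate numbers. Depth gave every member at least 181 counts in each library.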
